A study of Mus musculus with 6 samples.

Results

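The genes of ribosomal proteins were examined in cancer-associated fibroblast areas of mouse cholangiocarcinoma, a tumour of the bile duct lineage. Members were all targets of the deposited table whose symbol begins with Rpl or Rps, without the Rps6k kinases, or with Mrpl or Mrps. This gave 157 of 13264 targets, of which 79 formed the cytosolic set (46 large-subunit and 33 small-subunit names) and 78 the mitochondrial set (49 and 29). Set and subunit follow the symbol alone, and the place of each protein in a ribosome was not checked, also not in the mitochondrial set. In the cytosolic set the spelling of the symbol also took 2 names that are no subunits of the ribosome. They are Rps19bp1, a protein that binds Rps19, and Rps23rg1, a retrogene copied from Rps23, and both were kept and are named where they matter.

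The tumours were grown from the SB mouse cholangiocarcinoma cell line, and areas that stained for Desmin and not for CD45 were collected and read with gene-specific probes (GeoMx whole transcriptome assay). The floxed-labelled group held 3 regions of mice of genotype Cd274 F/F Col1A1Cre, with loxP sites in both copies of Cd274. The control-labelled group held 3 regions of Cd274 +/+ Col1A1Cre mice, which carry the same Cre and an intact Cd274. Cd274 encodes PD-L1, and the Cre acts in cells that use the Col1a1 promoter, so other cells in the mask keep the gene. No age or treatment of the mice is given in the sources used here. How many mice each genotype stands for is not stated, so some regions may come from 1 mouse and p-values over regions may be too small. All 6 regions were on the same slide, the floxed-labelled ones numbered as areas 11 to 13 and the others as areas 14 to 16, so genotype and area block cannot be told apart.

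Ribosomes that translate nuclear-encoded mRNA in the cytosol are built from Rps proteins in the small subunit and Rpl proteins in the large subunit. A separate ribosome inside mitochondria, made of Mrps and Mrpl proteins encoded in the nucleus, translates the few respiratory chain proteins that mitochondrial DNA encodes. Many mRNAs of cytosolic ribosomal proteins begin with a stretch of pyrimidines, the 5′ terminal oligopyrimidine (TOP) element, through which mTORC1 and Larp1 control their translation.

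The sequence around the annotated gene start is shown first, since it differs in frequency between both sets and uses no expression value. RefSeq windows of build GRCm38.p6, 250 bases before to 50 after the start, were found for 130 of the 157 members. A run of at least 8 pyrimidines that reached the 10 bases either side of the start was present in 29 of 61 cytosolic members (47.5%), 9 of 69 mitochondrial members (13.0%) and 16.7% of all 10521 targets with a window. The annotated start need not be the base where transcription starts in these cells. The windows below run from 40 bases before to 20 after the start, 5′ to 3′, for the 4 members of highest signal with a window in each set and for Mrps18a, Mrpl41 and Rpl6, with the longest such run in capitals.
Rpl41, chr10:128549149-128549208, minus strand: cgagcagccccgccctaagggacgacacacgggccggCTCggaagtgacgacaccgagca
Rpl13, chr8:123102310-123102369, plus strand: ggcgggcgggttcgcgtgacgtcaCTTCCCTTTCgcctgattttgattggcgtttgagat
Rpl19, chr11:98026884-98026943, plus strand: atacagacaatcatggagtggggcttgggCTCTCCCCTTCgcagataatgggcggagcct
Rplp0, chr5:115559427-115559486, plus strand: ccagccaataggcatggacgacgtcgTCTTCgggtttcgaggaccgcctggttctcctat
Rpl6, chr5:121204461-121204520, plus strand: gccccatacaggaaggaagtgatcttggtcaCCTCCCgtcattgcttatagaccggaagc
Mrpl33, chr5:31613911-31613970, plus strand: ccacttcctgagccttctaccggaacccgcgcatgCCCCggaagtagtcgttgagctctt
Mrpl43, chr19:45006423-45006482, minus strand: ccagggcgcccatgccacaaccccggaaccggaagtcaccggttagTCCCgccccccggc
Mrpl12, chr11:120484597-120484656, plus strand: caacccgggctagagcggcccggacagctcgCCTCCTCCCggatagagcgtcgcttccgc
Mrpl52, chr14:54426869-54426928, plus strand: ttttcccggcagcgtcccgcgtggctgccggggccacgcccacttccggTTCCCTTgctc
Mrps18a, chr17:46110964-46111023, plus strand: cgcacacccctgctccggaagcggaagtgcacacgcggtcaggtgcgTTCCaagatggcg
Mrpl41, chr2:24975079-24975138, minus strand: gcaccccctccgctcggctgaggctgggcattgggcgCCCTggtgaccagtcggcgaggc
In these windows the runs of Rpl13 and Rpl19 spanned 10 and 11 bases and that of Mrpl12 spanned 9, while the other 8 members shown had shorter ones.

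Other short motifs, searched on both strands of the whole window, showed smaller differences between the sets. The ETS factor core CCGGAAG was present in 37.7% of cytosolic and 37.7% of mitochondrial members, against 17.7% of all targets with a window. The YY1 core AAGATGG was present in 16.4% and 18.8%, against 7.97% of all targets. The E-box CACGTG was present in 9.84% and 7.25% against 11.1%, and TATAAA in 9.84% and 7.25% against 10.4%. These are matches of letters in a window, and no binding was measured. Members were spread over 18 (cytosolic) and 17 (mitochondrial) chromosomes. The genes Mrpl46 and Mrps11 lay 42 bases apart.

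Signals below are on a scale on which each region has a common upper quartile (Q3, the value that 75% of targets stay under), unless stated otherwise. Summed deposited signal was 223253 to 393615 in the floxed-labelled and 720786 to 1024178 in the control-labelled regions, and the negative probe, a measure of background, read 4.77, 6.97 and 5.39 against 5.06, 4.86 and 4.76 after scaling. Within a region nearly all values were whole multiples of the same smallest unit, called a step here. Assuming that each step is 1 tag, the median cytosolic member rested on 163, 132 and 362 tags in floxed-labelled regions 1, 2 and 3 and on 436, 601 and 755 tags in the control-labelled regions. The median mitochondrial member rested on 16, 14 and 27 tags, against 41.5, 54 and 61 tags. Counting error alone would be 5.26% to 8.70% of a median cytosolic signal in the floxed-labelled regions and 3.64% to 4.79% in the control-labelled ones, but 19.2% to 26.7% and 12.8% to 15.5% of a median mitochondrial signal. Cd274 read 11.1, 17.4 and 29.2 in floxed-labelled against 10.6, 14.2 and 13.4 in control-labelled regions (limma adjusted p 0.610), so its level does not check the labels. Col1a1, a fibroblast collagen, read 1411 to 2265 against 2484 to 3738, and Des, which encodes Desmin, 22.2, 41.4 and 46.0 against 24.9, 40.4 and 28.8. Ptprc, which encodes CD45, read 29.6, 58.8 and 55.0 against 21.2, 26.8 and 30.3, so its RNA was above the negative probe in every region.

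Cytosolic ribosomal protein targets were among the brightest of the table in every region, and mitochondrial ones lay in its middle. Of the 79 cytosolic members 43 were in the top 1% of all targets by mean signal and 74 in the top 5%. The 5 outside were Rpl22l1, Rps27l and Rpl7l1, which are paralogues of core ribosomal proteins, and the non-ribosomal names Rps19bp1 and Rps23rg1. No mitochondrial member reached the top 5%, and their median lay at the 67.8th percentile. Signals of different targets also depend on how well each probe binds, so these ranks order signals and not transcript numbers.

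Within the cytosolic set mean signals over 6 regions ran from 20.7 for Rps23rg1 to 1048 for Rpl41. Rpl41 encodes the shortest ribosomal protein, and it was followed by Rpl17 at 812, Rpl13 at 727 and Rpl19 at 658, all of the large subunit. Among small-subunit members Rps2, which lies where mRNA enters, was highest at 617, before Rps3a1 at 612. The mitochondrial set was narrower, from 12.8 for Mrps27 to 76.1 for Mrpl33. After Mrpl33 came Mrpl43 and then Mrpl12, the mitochondrial counterpart of a bacterial stalk protein. Every cytosolic member read over 2 times the negative probe in every region, and 66 of 78 mitochondrial members did. The lowest were Mrps27, Mrpl34, at 3.70, 24.0 and 12.3 in floxed-labelled against 18.1, 14.8 and 13.4 in control-labelled regions, and Mrpl46.

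**Figure D1:**
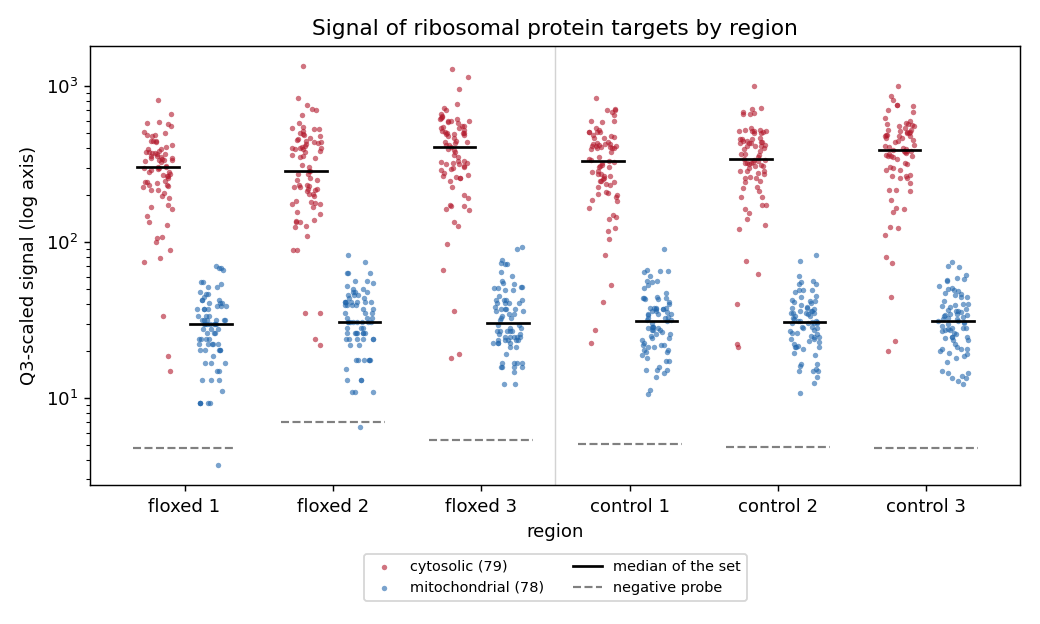
Q3-scaled signal (vertical log axis) of each of the 79 cytosolic and 78 mitochondrial members in each region (horizontal axis), with the median of each set as a bar and the negative probe as a dashed line. The cytosolic medians sit at 287 to 406 in the floxed-labelled and 329 to 388 in the control-labelled regions, the mitochondrial medians at 29.6 to 30.5 and 30.8 to 31.4.

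The distance between both sets overlapped between genotypes. The geometric mean of signal plus 1 in the cytosolic set was compared with that in the mitochondrial set. It was 9.28, 8.48 and 10.4 times as high in floxed-labelled regions 1, 2 and 3. In the control-labelled regions it was 9.36, 9.92 and 10.7 times as high. This gave 9.40 ± 0.99 times in the floxed-labelled and 10.0 ± 0.68 times in the control-labelled regions (SD, n = 3 per genotype), with overlap. On the log2 scale the difference was -0.09, floxed-labelled minus control-labelled. A common factor per region changes this measure only through the added 1, but quantile normalization turned it to 0.038. Cytosolic members took 4.89%, 5.39% and 6.18% of a floxed-labelled region's signal, against 5.38%, 5.56% and 6.15% of a control-labelled one's. Mitochondrial members took 0.481% to 0.542%, against 0.493% to 0.508%.

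What varied between regions was the level of the cytosolic set as a block. Floxed-labelled region 3 was the brightest of its group, above region 1 for 73 of the 79 cytosolic members and above region 2 for 68. In the control-labelled group region 3 lay above region 1 for 73 members and above region 2 for 73. Floxed-labelled regions 1 and 2 held the lowest of the 6 values for 32 and 37 cytosolic members, and floxed-labelled region 3 and control-labelled region 3 the highest for 34 and 30. Of all targets, 27.0% and 22.3% were lowest in floxed-labelled regions 1 and 2, and 18.5% and 9.79% were highest in regions 3 of the floxed-labelled and control-labelled groups. The mitochondrial set showed less of this, with floxed-labelled region 3 above region 1 for 47 of 78 members and control-labelled region 3 above region 1 for 40. Across members, log2 signals of the cytosolic set correlated between control-labelled regions at Pearson's r of 0.99 to 0.995 and between floxed-labelled regions at 0.918 to 0.971, and those of the mitochondrial set at 0.859 to 0.911 and 0.505 to 0.669. These are correlations across 79 and 78 genes of the same slide, and the floxed-labelled regions had fewer tags.

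Signals varied more among floxed-labelled than among control-labelled regions over the whole table, and the members shared in this. The SD of the log2 signal over 3 regions was larger in the floxed-labelled group for 76.4% of all targets, for 72 of 79 cytosolic members and for 60 of 78 mitochondrial members. The cytosolic members mostly shared their order of regions, so these are not independent observations. The median SD of a cytosolic member was 0.29 against 0.12, where counting alone, if a step is 1 tag, would give 0.11 and 0.06. For mitochondrial members the median SD was 0.31 against 0.18, and counting alone would give 0.36 and 0.21. The counting figures are expected SDs without the 1 added before the log2. A median of SDs over 3 regions tends to lie below an expected SD, so the figures are not directly comparable.

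No ribosomal protein target passed the test between genotypes. With limma over all 13264 targets and Benjamini-Hochberg adjustment, 0 of 79 cytosolic and 0 of 78 mitochondrial members were called higher or lower at an adjusted p under 0.05, where 0.588% of all targets were called higher and 0.113% lower. At an unadjusted p under 0.05, 0 cytosolic members were higher and 2 lower, and 2 mitochondrial members were higher and 1 lower, where all targets gave 6.73% higher and 5.98% lower. The smallest adjusted p was 0.352 in the cytosolic and 0.287 in the mitochondrial set. The median log2 change, floxed-labelled minus control-labelled, was -0.09 in the cytosolic and -0.01 in the mitochondrial set, beside 0.02 for all targets. No member's log2 change exceeded 1 in size, and the median SE of a member's change was 0.26 in both sets, so a missing call does not show that a member was equal in both groups.

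**Figure D2:**
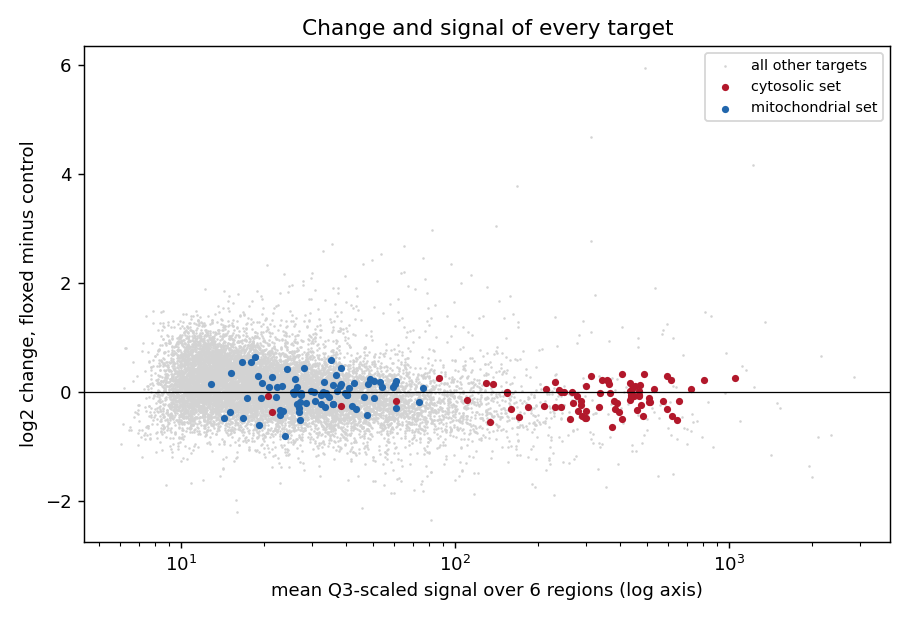
Log2 change, floxed minus control (vertical axis), against mean Q3-scaled signal over 6 regions (horizontal log axis) for every target. Cytosolic members (red) lie at high signal between -0.65 and 0.33, and mitochondrial members (blue) at moderate signal between -0.82 and 0.65, without any call in either set.

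In bulk areas such as these, fewer cells of a type and less RNA per cell cannot be told apart. The direction within the cytosolic set was uneven. All 3 floxed-labelled regions lay below all 3 control-labelled regions for 13 of 79 cytosolic members and above them for 0, where 9.08% of all targets lay below and 10.1% above. They included Rpl24, Rpl6, Rpl14, Rpl9, Rplp0, Rps2, Rpl29, Rpl10, Rpl7l1, Rpl31 and the non-ribosomal Rps19bp1. None of the 13 passed the test over all targets. In the mitochondrial set 5 of 78 lay below and 7 above.

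Rplp0 forms the base of the P stalk, the arm of the large subunit that recruits elongation factors. It read 479, 477 and 646 in floxed-labelled regions 1, 2 and 3, against 710, 710 and 859 in control-labelled regions. The groups did not overlap, with a log2 change of -0.52 ± 0.27 (SE) and an adjusted p of 0.456 (limma, Benjamini-Hochberg). Its partners in the stalk, Rplp1 and Rplp2, overlapped between groups. Rplp1 read 592, 401 and 601 against 592, 666 and 703, and Rplp2 read 265, 226 and 322 against 264, 284 and 303.

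Rpl6, a protein on the outer face of the large subunit, read 300, 196 and 395 in floxed-labelled and 406, 441 and 498 in control-labelled regions. Its log2 change of -0.65 ± 0.29 (SE) was the most negative of the cytosolic set, with an adjusted p of 0.378 by limma. Rpl24, which reaches from the large to the small subunit, read 105, 89.3 and 133 against 140, 174 and 165, a change of -0.55 ± 0.23 (SE, limma adjusted p 0.352). In both genes floxed-labelled region 2 was lowest and region 3 came closest to the control-labelled values. Rpl14 read 135, 126 and 172 against 184, 194 and 216, and floxed-labelled region 2 was again lowest.

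Among small-subunit proteins Rps2 read 448, 468 and 660 in floxed-labelled and 705, 663 and 761 in control-labelled regions, where floxed-labelled region 3 lay just below the lowest control-labelled value. Its limma adjusted p was 0.515. Rps6, the small-subunit protein that S6 kinase phosphorylates, read 341, 377 and 441 against 284, 338 and 369, and Rps4x, encoded on the X chromosome, 448, 440 and 542 against 510, 526 and 598. Both overlapped between groups.

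Floxed-labelled region 2 held the highest of 6 values for 10 of 79 cytosolic members and 22 of 78 mitochondrial members, where it did so for 32.2% of all targets. The 10 were Rpl41, Rps3a1, Rpl35a, Rps24, Rps27a, Rpl37a, Rpl15, Rpl35, Rpl22l1 and the non-ribosomal Rps23rg1. Rps27a, which encodes ubiquitin fused to a small-subunit protein, read 302, 584 and 490 in floxed-labelled and 341, 332 and 388 in control-labelled regions. Rpl35a read 483, 762 and 724 against 521, 498 and 571. Rpl41 read 816, 1348 and 1289 against 835, 1002 and 999. In each of these 3 genes floxed-labelled regions 2 and 3 lay above the control-labelled values and region 1 did not, and the limma adjusted p ran from 0.676 to 0.784.

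**Figure D3:**
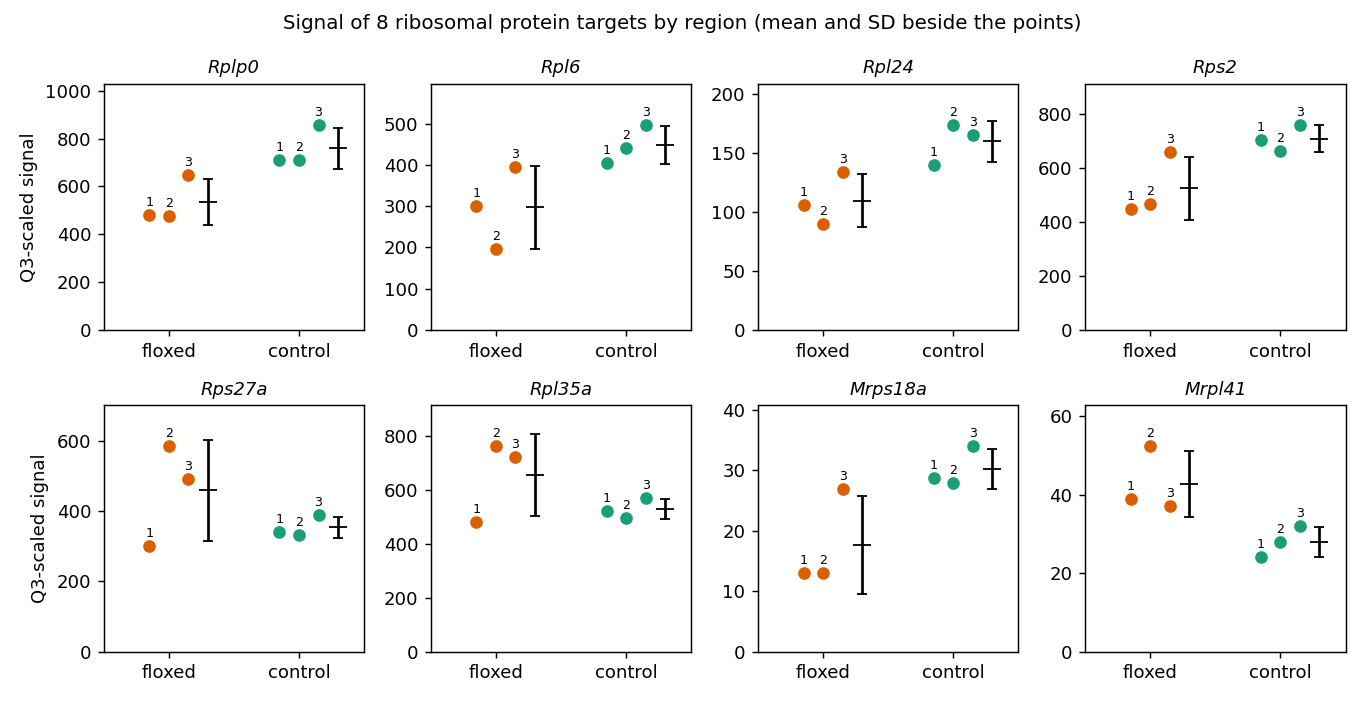
Q3-scaled signal (vertical axes, starting at 0) of 8 members in the floxed-labelled (orange) and control-labelled (green) regions, with the region number above each point and the mean with SD (n = 3) beside the points. Rplp0, Rpl6, Rpl24, Rps2 and Mrps18a lie below the control-labelled regions in all 3 floxed-labelled regions, Mrpl41 above them, and Rps27a and Rpl35a overlap.

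The balance between the subunits of the cytosolic ribosome separated the regions by label. Summed large-subunit signal was 1.59, 1.52 and 1.60 times summed small-subunit signal in floxed-labelled regions 1, 2 and 3, against 1.71, 1.68 and 1.69 times in control-labelled regions. The groups did not overlap, at 1.57 ± 0.05 and 1.69 ± 0.02 (SD, n = 3 each). The same balance of the mitochondrial set, sorted by symbol alone, was 2.16, 2.0 and 2.19 against 2.01, 2.05 and 2.10, and overlapped. Taken as mean log2 signals, the cytosolic large minus small difference was 0.22 ± 0.05 and 0.34 ± 0.01 (SD, n = 3 each), and without Rps19bp1 and Rps23rg1 it was -0.02 ± 0.04 and 0.12 ± 0.02. The difference between genotypes was -0.12 on this log2 scale, -0.14 to -0.09 with a region left out and -0.12 after quantile normalization. Large-subunit members had a median log2 change of -0.18 and small-subunit members of -0.01. This balance was computed after the members' values were seen, is a score over the members and was given no p.

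**Figure D4:**
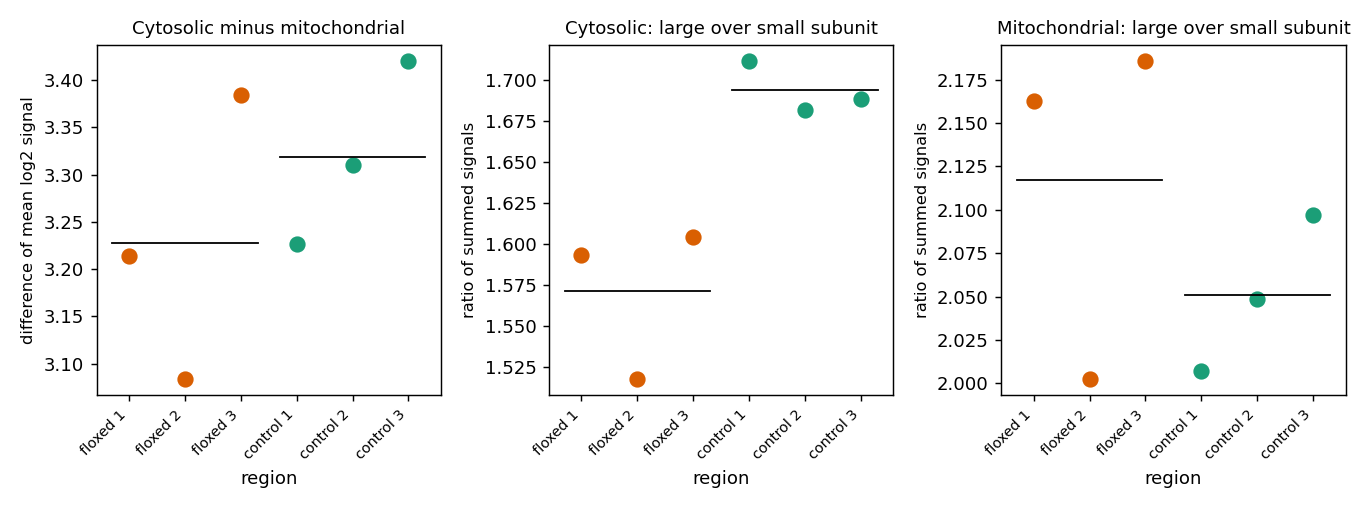
For each region (horizontal axis), the mean log2 signal of the cytosolic minus the mitochondrial set (left), and the summed signal of large-subunit over small-subunit members in the cytosolic (middle) and mitochondrial set (right); lines are group means and the vertical axes do not start at 0. Only the middle panel separates floxed-labelled (1.52 to 1.60) from control-labelled regions (1.68 to 1.71) among these 3 measures.

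Paralogue pairs, in which a second gene encodes a related form of a ribosomal protein, kept their order. Rpl22 read 163, 135 and 162 in floxed-labelled and 146, 163 and 156 in control-labelled regions, and its paralogue Rpl22l1 read 79.6, 109 and 96.5 against 82.3, 75.7 and 80.2. The ratio Rpl22 to Rpl22l1 was 1.65 ± 0.40 against 1.96 ± 0.19 (SD, n = 3 each). Rps27 was 4.57 ± 1.29 times its p53-responsive paralogue Rps27l in floxed-labelled and 4.01 ± 0.60 times in control-labelled regions, and Rpl7 was 4.15 ± 1.09 and 4.16 ± 0.17 times Rpl7l1. These 3 ratios overlapped between groups. Rpl36a was 0.684, 0.719 and 0.774 times its paralogue Rpl36al, against 0.848, 0.866 and 0.979 times, and did not overlap. Probes for related genes may bind both, and no probe sequence was examined, so the split between partners is uncertain.

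In the mitochondrial set the smallest p belonged to Mrps18a, one of 3 homologues of the same bacterial small-subunit protein. Mrps18a read 13.0, 13.1 and 26.9 in floxed-labelled and 28.7, 27.9 and 33.9 in control-labelled regions, a log2 change of -0.82 ± 0.30 (SE, limma adjusted p 0.287). Its homologue Mrps18b read 29.6, 63.1 and 42.6 against 35.5, 30.8 and 28.8, and Mrps18c 31.5, 26.1 and 19.1 against 25.7, 24.5 and 27.8. Mrps18a was thus 0.438, 0.207 and 0.632 times Mrps18b in floxed-labelled regions and 0.809, 0.907 and 1.18 times in control-labelled regions. That ratio did not overlap between groups, while Mrps18a over Mrps18c did, at 0.412, 0.50 and 1.41 against 1.12, 1.14 and 1.22. In floxed-labelled region 2 the negative probe read 6.97, so Mrps18a at 13.1 was under 2 times background there. Both ratios thus rest partly on low signal.

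All 3 floxed-labelled regions lay above all control-labelled regions for the 7 mitochondrial members counted above, a share of 8.97% beside 10.1% of all targets. Mrpl41, a large-subunit protein also reported to bind Bcl2, read 38.9, 52.3 and 37.0 in floxed-labelled and 24.2, 27.9 and 31.9 in control-labelled regions. Mrpl19 read 22.2, 30.5 and 16.8 against 15.1, 13.7 and 13.4, and Mrpl47 read 24.1, 24.0 and 16.8 against 15.1, 14.8 and 12.9. Their log2 changes were 0.58, 0.65 and 0.55 with limma adjusted p of 0.339, 0.375 and 0.422. In the control-labelled regions Mrpl19 and Mrpl47 averaged 2.87 and 2.91 times the negative probe, which is close to background. Mrps28, Mrpl37, Mrpl40 and Mrpl18 were the other members of this kind.

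Several mitochondrial members with special roles overlapped between groups. Mrpl58, a peptide-releasing factor that became part of the mitochondrial ribosome, read 29.6, 37.0 and 33.7 in floxed-labelled and 36.3, 35.3 and 31.4 in control-labelled regions. Mrpl12 read 37.0, 54.4 and 76.3 against 66.5, 60.9 and 70.4, with floxed-labelled regions on both sides of the control-labelled ones. The neighbouring genes Mrpl46 and Mrps11 read 9.25, 13.1 and 16.8 against 15.1, 21.1 and 14.9, and 27.8, 10.9 and 21.3 against 28.0, 30.2 and 19.5. Their order of regions differed.

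Ribosomal proteins whose symbols do not follow the Rpl and Rps pattern also gave no call. Of 4 such cytosolic genes 0 were called, with a median log2 change of -0.22, and Fau, a ubiquitin-like fusion of a small-subunit protein, read 620, 496 and 783 in floxed-labelled against 772, 814 and 899 in control-labelled regions. Of 5 mitochondrial subunits with other names 0 were called, and at an unadjusted p under 0.05 limma gave 0 in either list. Dap3, a GTP-binding subunit, read 29.6, 24.0 and 28.0 against 43.1, 31.3 and 38.6, and Ptcd3, an RNA-binding subunit, read 24.1, 28.3 and 26.9 against 20.4, 23.9 and 18.0. Neither pair of groups overlapped, and the limma adjusted p were 0.452 and 0.583.

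The wider translation machinery gave no call either. Of 49 measured ribosome biogenesis genes 0 were called, with 3 higher and 0 lower at an unadjusted p under 0.05, and Nip7, which matures pre-ribosomes, read 46.3, 61.0 and 57.2 in floxed-labelled against 42.3, 33.6 and 38.0 in control-labelled regions. Of 34 initiation factors 0 were called, with 0 higher and 5 lower at that unadjusted level, where all targets gave 6.73% higher and 5.98% lower. Eif3f and Eif3h, subunits of the factor that loads mRNA on the small subunit, read 154, 67.5 and 113 against 237, 215 and 212, and 152, 142 and 169 against 227, 212 and 251. Their log2 changes were -1.06 ± 0.29 and -0.58 ± 0.22 (SE) with limma adjusted p of 0.147 and 0.302.

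Of 11 elongation and termination factors 0 were called, with 0 higher and 1 lower at an unadjusted p under 0.05. Eef2, the factor that moves the ribosome along the mRNA, read 716, 355 and 611 in floxed-labelled against 771, 947 and 965 in control-labelled regions, with no overlap and a limma adjusted p of 0.372. Of 21 Myc, mTORC1 and TOP regulators 0 were called, with 0 higher and 1 lower unadjusted. Deptor, an inhibitor of mTOR, read 24.1, 19.6 and 14.6 against 34.8, 45.6 and 42.7, a log2 change of -1.06 ± 0.26 (SE, limma adjusted p 0.104). Of 45 genes of mitochondrial translation and ribosome assembly 0 were called by limma, with 1 higher and 0 lower unadjusted, and Tars2, which charges mitochondrial tRNA with threonine, read 38.9, 21.8 and 20.2 against 14.4, 14.8 and 15.9.

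Summed markers of cell types separated the same regions by label for some lists and overlapped for others. Calls of markers stand beside 0.588% of all targets called higher and 0.113% called lower. Summed epithelial and cholangiocyte markers (12 genes) were 3593, 1603 and 2774 in floxed-labelled regions 1, 2 and 3, against 6611, 4989 and 3843 in control-labelled regions, and fibroblast and stellate markers (14 genes) 5058, 3891 and 5535 against 6402, 8985 and 7872. Both lists had 0 calls and did not overlap in their sums. Summed hepatocyte markers (12 genes, 0 calls) ranged from 3262 to 10039 against 4397 to 5411. Of 9 B and plasma cell markers 3 were called higher, with sums of 580 to 4242 against 207 to 214, and of 11 macrophage markers 1 was called higher, with sums of 573 to 866 against 359 to 735. T and NK cell markers (8 genes, 0 calls) summed to 83.3 to 181 against 61.2 to 69.4, and of 5 neutrophil markers 2 were called lower (59.2 to 87.1 against 119 to 154). Endothelial (9 genes) and proliferation markers (11 genes) had 0 calls and overlapped, at 196 to 418 against 155 to 455 and 246 to 568 against 217 to 278. No measured marker was at 0, but some were close to the negative probe. Cd3e, Cd2 and Cd8a averaged 3.22, 3.14 and 2.69 times it in floxed-labelled and 1.85, 1.47 and 1.45 times in control-labelled regions. Cd79b read 1.85 in floxed-labelled region 1, where the negative probe read 4.77. Sums of such low markers partly hold background. The part of these lists in the cytosolic levels was not tested.

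On the values as deposited, without Q3 scaling, 0 cytosolic members were called higher and 70 lower, and 0 mitochondrial members higher and 72 lower (limma, Benjamini-Hochberg), where 0.158% of all targets were called higher and 74.7% lower. The median log2 change was then -1.40 in the cytosolic and -1.29 in the mitochondrial set, beside -1.22 for all targets.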

How the data were processed

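The deposited table holds a signal value per target and region. Desmin-positive, CD45-negative areas were collected, per the series' design text, and their tags were amplified and sequenced, per the labels' protocols. For the counting and scaling behind the deposited signal nothing is stated: not given in the sources used here. Of each column at least 99.977% of values were whole multiples of 1 step within 0.01 step, but no count model was used, since the smallest control-labelled values were 2 or 4 steps. All 6 columns were used. Each region was scaled to a common Q3, and log2(value + 1) was fitted with limma 3.58.1 in R 4.3.3 (lmFit, eBayes with a mean-variance trend) over all 13264 targets with Benjamini-Hochberg adjustment. Such log2 changes understate those of low targets. An exact test of 3 against 3 cannot go below p = 0.1. Errors are SD over regions, or SE of limma's change where marked. The fit was tested on simulated data over all targets. It called 3 of 100 targets with a log2 change of 1 in size and 71 of 100 with a change of 2. Of 13064 unchanged targets it called 3. Under these settings changes under 1 in size would thus seldom be called. The simulation drew targets independently with the same spread in both groups. In the data 76.4% of all targets had a larger SD in the floxed-labelled group, so the simulated rates are only a rough guide for the members.

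Members, the 16 gene lists and all tests were chosen with earlier results of these data known. Named genes were, per class of subunit, the highest and lowest in signal, the smallest p in each direction and fixed paralogues, stalk proteins and Mrps18 homologues, plus the smallest p of each list of translation genes. Rpl13, Rpl19 and the genes named only for their order of regions were chosen after their values were seen. Some members that the rule names are not reported here. Promoter windows and names are from RefSeq (GRCm38.p6), in which all 157 members matched by symbol. The probe assembly of the deposited table is unstated. Figures were drawn with matplotlib 3.10.9.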

Additional observations from a re-analysis of the deposited data

How the results depend on the processing

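The absence of calls held under 14 of 15 alternatives: common total, quantile and negative-probe scaling, pseudocounts of 0.5 and 5, only targets over 2 times the negative probe, no mean-variance trend, an adjusted p under 0.1, and each of 6 regions left out in turn gave 0 called members in both sets. The exception was the deposited scale, with 70 cytosolic and 72 mitochondrial members lower and set medians of -1.40 and -1.29, which carries the shift of all targets of -1.22. On that scale Mrpl33 (-1.23), Mrps14 (-1.20), Mrps27 (-1.07), Mrps31 (-0.89), Mrps5 (-0.85), Rpl22l1 (-1.06), Rpl3 (-1.26) and Rpl36al (-1.15) turned from a positive log2 change without a call to a called negative one. On the Q3 scale no member's log2 change exceeded 1 in size, and the simulation called 3 of 100 changes of 1. An absence of calls under the other 14 alternatives was therefore likely beforehand and adds little support. Negative-probe scaling gave set medians of -0.29 and -0.21, with all targets at -0.17. With a region left out the cytosolic median ran from -0.25 (without floxed-labelled region 3) to -0.03 (without floxed-labelled region 1), and the mitochondrial median from -0.06 to 0.06. The cytosolic over mitochondrial contrast, -0.09 on the log2 scale, was 0.038 after quantile normalization and -0.17 to -0.02 with a region left out. The cytosolic large minus small balance, recomputed after its values were seen, kept its sign in every alternative run. A factor per region hardly changes such a difference. The groups did not overlap, so leaving out a region could not turn its sign either, and the kept sign adds no support. The cause of the moves named above was not tested. No paired analysis was possible because the labels give the regions no shared replicate numbers. Low tag numbers limit what single mitochondrial members can show.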
